A study of Oryza sativa with 36 samples.

Results

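The transcripts described here are 150 of the 57258 probe sets that are not array controls, and they are the ones whose signal in rice shoots was lower under salt and higher again when ABA was added to the salt. For every probe set the mean of log2(intensity + 32) over the 6 salt shoot arrays was subtracted from that over the 6 control arrays and from that over the 6 salt+ABA arrays, with both lines pooled, and the smaller of these 2 differences was taken as its score. The 150 probe sets with the highest score are the members. The 3 treatments of the shoots therefore chose the members, and their levels in those treatments are a description that was given no test. The roots, and the comparison of the 2 lines with each other, had no part in the choice.

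The study set PL177, a salt-tolerant F6 pyramiding line from a cross between introgression lines in the IR64 background, against IR64, the moderately salt-sensitive parent that gave the background. Seedlings at the 3-leaf stage received salt+ABA (140 mM NaCl with 10 µM ABA), salt (140 mM NaCl) or nutrient solution alone as the control, and shoots (called leaf in the labels) and roots were hybridised to Affymetrix rice arrays. There were 3 biological replicates for each of the 12 groups, 36 arrays in all. The labels give 4 days of treatment and the methods give a longer one. PL177 is a single line, so that its values stand for that line alone. A level is the intensity that the authors deposited for a probe set, on a linear scale, and levels of different probe sets were not compared because probes differ in brightness.

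Abscisic acid (ABA) is a plant hormone that builds up when water is short or salt is high. It binds PYR/PYL receptors, which then hold back phosphatases of type 2C and so free SnRK2 kinases (called SAPK in rice) to act on transcription factors and ion channels. Salt lowers the expression of many genes of growth, sugar use and biotic defence in leaves, and jasmonate, a hormone made from lipids in chloroplasts and peroxisomes, switches on many of the defence genes.

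Of the members, 121 had 1 gene in the platform annotation and 29 had none. The 121 stood for 109 genes, of which 9 had more than 1 member probe set. NPR3, a relative of the salicylic acid co-regulator NPR1, was represented by 4 probe sets, LOC4349078 by 3, and the alpha-amylase gene AMY1.3 and the bidirectional amino acid transporter gene BAT1 by 2 each. Such probe sets share a transcript and are not separate evidence. Names ending in _x_at or _s_at, which mark probes that can bind several transcripts, were carried by 13 and 11 members. A symbol other than a locus number was available for 23 genes. In the gene order of assembly ASM3414082v1, pairs of member genes with no gene between them were LOC4325537 and LOC4325538 on chromosome 1, LOC4325585 and LOC4325586 on chromosome 1, LOC4341467 and LOC4341468 on chromosome 6, and LOC4349230, LOC107275259 and LOC4349232 in one run on chromosome 10. The first 2 genes of that run on chromosome 10 were measured by probe sets of the same sequence cluster, so that they cannot be told apart.

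The score of the members ran between 1.28 and 3.78 on the log2 scale, with a median of 1.56. Control minus salt had a median of 1.94 and salt+ABA minus salt one of 1.66, against 0.02 and 0.04 over all probe sets. The limit was close. The last 3 members, LOC9266893 and 2 probe sets with no gene name, had scores of 1.28 each, and the first 3 probe sets left out, LOC4326638, LOC4327838 and 1 with no gene name, had scores of 1.27 each. Read in 1 line at a time, all 150 members kept these directions in both lines. Both lines had a part in the choice, so that this agreement is no separate evidence. The median of control minus salt was 1.95 in PL177 and 1.94 in IR64. That of salt+ABA minus salt was 1.53 in PL177 and 1.78 in IR64.

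Single shoot arrays differed in the members far more than in all probe sets. The rule chose the members on these same arrays, so that this comparison partly restates the choice. The median member intensity was 1094, 1049 and 1021 on the salt+ABA shoot arrays 1, 2 and 3 of PL177, 469, 226 and 312 on its salt arrays, and 2311, 731 and 2469 on its control arrays. In IR64 it was 1214, 967 and 1062 with salt+ABA, 475, 175 and 228 under salt, and 2034, 515 and 2846 under control. Control array 2 was thus the lowest of its group in both lines. It lay below the mean of the other 2 control arrays by more than 1 on the log2 scale for 102 members in PL177 and 126 in IR64, against 1.96% and 2.08% of all probe sets. Salt array 1 was the highest of its group in both lines, with a median shift of 0.90 in PL177 and 0.95 in IR64 against the other 2 salt arrays. Members varied little with salt+ABA, where the median SD within a group was 0.154 on the log2 scale, more under salt (0.630) and most under control (1.16). The same medians for all probe sets with a group mean of at least 64 were 0.097, 0.146 and 0.204. Whether time of day, position in the phytotron or another condition set control array 2 apart was not tested, since the labels give none of these.

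**Figure D1:**
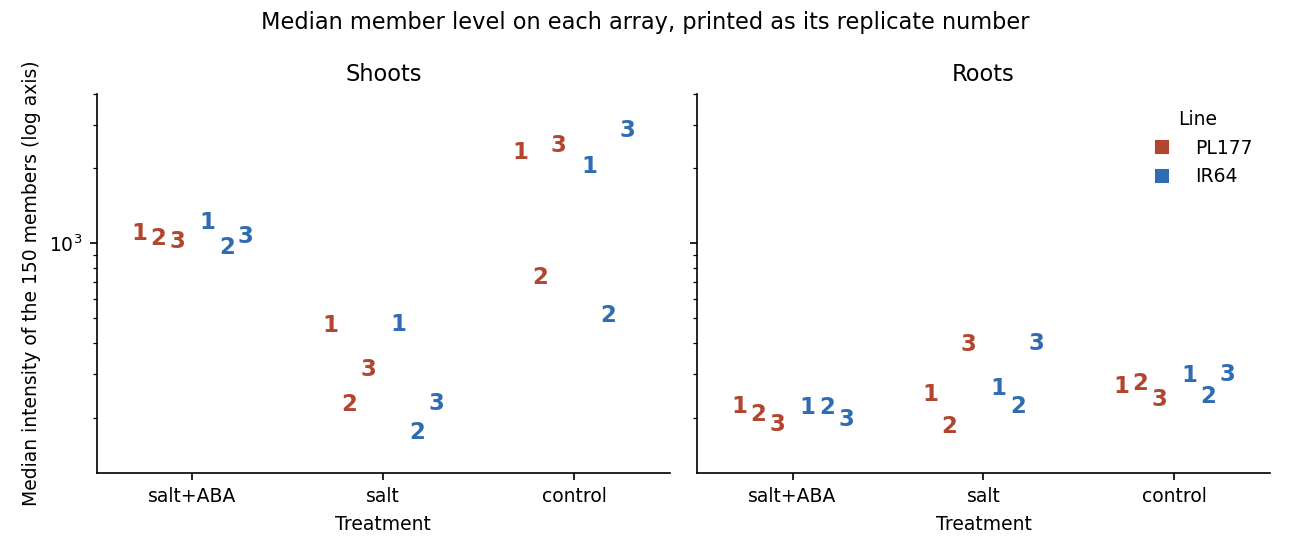
Median intensity of the 150 members (log axis) on each of the 36 arrays, shoots at the left and roots at the right, by treatment. Digits are replicate numbers and colours are lines; in shoots the digit 2 of the control lies near or below the salt+ABA arrays and far below the digits 1 and 3 in both lines.

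The size of the return toward the control level depended on those 2 control arrays. With all arrays, salt+ABA minus control had a median of -0.27, with 92 of the 150 members within 0.5 of the control level, 52 more than 0.5 below it and 6 more than 0.5 above it. Without control array 2 of both lines the median was -0.87, 27 members were within 0.5 of the control and 56 were more than 1 below it. Against control array 2 alone, salt+ABA was higher by a median of 0.90, and 124 members were above it. The median of control minus salt, on which the members were chosen, was 1.94 with all arrays, 2.53 without both control arrays 2 and 0.82 against those 2 arrays alone. Against those 2 arrays alone 130 of the 150 members were above salt and 65 were above it by more than 1, and 20 were not above it. Without salt array 1 of both lines, salt+ABA minus salt had a median of 1.99 and control minus salt one of 2.32. The rule run without both control arrays 2, an alternative chosen after seeing the data, kept 132 of the 150 members.

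The 6 salt+ABA arrays lay above all 6 salt arrays for 139 members, a separation shown by 11.6% of all probe sets. The 6 control arrays lay above all 6 salt arrays for 55 members (3.84% of all probe sets), and the 4 control arrays 1 and 3 did so for 146 (9.13%). Those same 4 control arrays lay above all 6 salt+ABA arrays for 105 members (7.66%). Both control arrays 2 lay above all salt arrays for 56 members (11.9%) and below all salt+ABA arrays for 89 (22.2%). Since the rule used these arrays, nothing is read from those shares. Arrays of the same line and number were also set side by side, although the numbers did not pair the treatments. Salt+ABA was above salt in all 6 of these comparisons for 145 members, and control was above salt in all 6 for 134. The rule used these arrays too, and no share of all probe sets was computed, so that nothing is read from these counts.

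**Figure D2:**
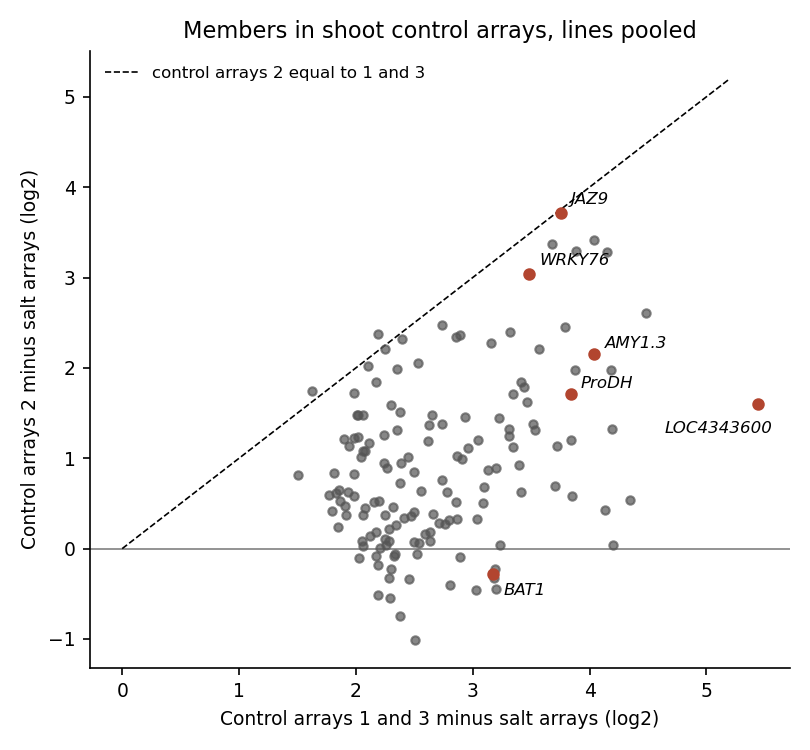
Each point is a member in shoots with lines pooled, placed by control arrays 1 and 3 minus salt (x axis, log2) and by control arrays 2 minus salt (y axis, log2). JAZ9 and WRKY76 lie on or near the dashed line of equal values, BAT1 lies below 0 on the y axis, and 115 of the 150 members are at least 1 below the line.

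The strongest member was LOC4343600 on chromosome 7, for which no role was annotated. Its intensity with salt+ABA was 879, 1192 and 1073 in PL177 and 1091, 918 and 1131 in IR64. Under salt it was 122, 34.9 and 36.9 in PL177 and 44.3, 32.8 and 32.3 in IR64. Under control it was 3285, 262 and 4814 in PL177 and 2318, 159 and 3475 in IR64. Salt took the signal to near the lower end of the scale on 5 of the 6 salt arrays, the salt+ABA arrays were all far above them, and the control groups each held 1 array well below salt+ABA. A further probe set of the same gene, ranked 15, gave log2 differences of 2.76 for control minus salt and 2.33 for salt+ABA minus salt, against 4.16 and 3.78 for the first.

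Some members act in carbohydrate use. AMY1.3 codes for an alpha-amylase, an enzyme that breaks starch into sugars. In salt+ABA shoots AMY1.3 read 462, 486 and 414 in PL177 and 614, 474 and 504 in IR64. In salt shoots AMY1.3 read 156, 36.4 and 47.0 in PL177 and 77.0, 23.1 and 33.5 in IR64. In control shoots AMY1.3 read 1328, 255 and 1909 in PL177 and 937, 478 and 1523 in IR64. The salt+ABA arrays overlapped the control arrays only through array 2 of the control, and no salt array reached any salt+ABA array. MST3 codes for a monosaccharide transporter. It is one of 5 members that the study had picked out on these same samples, so that its direction is no independent evidence. The others are ProDH, Os08g0137800, Os01g0389700 and the probe set named LOC4349519 here, which the study lists under another locus. In salt+ABA shoots MST3 read 5648, 6171 and 5228 in PL177 and 6686, 5459 and 5991 in IR64. In salt shoots MST3 read 3203, 1003 and 1598 in PL177 and 3076, 679.8 and 942 in IR64. In control shoots MST3 read 9203, 5284 and 9238 in PL177 and 8894, 3271 and 10486 in IR64. All salt arrays were below all other shoot arrays, and control array 2 lay within the salt+ABA range in PL177 and below it in IR64. TPP1, a trehalose-6-phosphate phosphatase, makes trehalose from its phosphate. Its lowest, median and highest intensity were 1932, 2076 and 2313 in salt+ABA shoots, 386, 922 and 1037 in salt shoots and 3159, 4107 and 4646 in control shoots, and these ranges did not overlap. PDRP1, which regulates pyruvate phosphate dikinase, read 2037, 2219 and 2576 with salt+ABA, 663, 798 and 1193 under salt and 766, 4469 and 6069 under control, where the control range held the whole salt+ABA range and overlapped the salt range. TPP1 and PDRP1 were picked for mention after their values had been seen.

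Further members act on amino acids. ProDH, proline dehydrogenase, starts the breakdown of proline in mitochondria. With salt+ABA, ProDH in shoots was 755, 874 and 860.0 in PL177 and 907, 697 and 836 in IR64. Under salt, ProDH in shoots was 369.7, 109 and 152 in PL177 and 236, 109.5 and 173 in IR64. Under control, ProDH in shoots was 2517, 708 and 3836 in PL177 and 2303, 596 and 3364 in IR64. All 6 salt arrays lay below every other array, and in each line the salt+ABA arrays lay above control array 2 and below the other control arrays, with a log2 difference of -1.10 from the control over all arrays. BAT1 moves amino acids across membranes. With salt+ABA, BAT1 in shoots was 1138, 1375 and 1438 in PL177 and 1251, 1087 and 1454 in IR64. Under salt, BAT1 in shoots was 489, 163 and 186 in PL177 and 322, 185 and 180.1 in IR64. Under control, BAT1 in shoots was 2305, 187 and 3538 in PL177 and 1360.0, 186 and 2872 in IR64. Here control array 2 was at the salt level in both lines, and over both lines control array 2 minus salt was -0.29 on the log2 scale. Control array 2 was less than 0.5 above the salt mean for 55 members, and it was within 0.5 of the other control arrays for 13.

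Of the jasmonate genes, LOX8 codes for a chloroplast lipoxygenase that starts jasmonate synthesis, AOS1 for an allene oxide synthase that follows it, and JAZ9 for a JAZ protein, a repressor of jasmonate-responsive transcription. LOX8 read 1226, 1376 and 1419 in PL177 and 1531, 1267 and 1533 in IR64 with salt+ABA. It read 703, 199 and 355 in PL177 and 651, 173 and 277 in IR64 under salt. It read 3864, 2652 and 4829 in PL177 and 4416, 1098 and 4636 in IR64 under control. Every salt array was below every salt+ABA array, and 5 of the 6 control arrays were above all salt+ABA arrays. AOS1 kept the same order, with a lowest, median and highest intensity of 3003, 3234 and 3473 with salt+ABA, 462, 1480.4 and 1710.2 under salt and 3047, 5546 and 6716 under control. JAZ9 returned least. Its intensity was 1103, 747 and 672 in PL177 and 997, 697 and 658 in IR64 in salt+ABA shoots. It was 216, 321 and 899.7 in PL177 and 370.2, 62.2 and 441 in IR64 in salt shoots. It was 4322, 5196 and 2644 in PL177 and 6277, 3740.2 and 5781 in IR64 in control shoots. Salt array 3 of PL177 lay above 2 salt+ABA arrays of that line, so that the salt+ABA and salt ranges overlapped, whereas all 6 control arrays were above all other shoot arrays. Control array 2 was not low in JAZ9, where it lay 3.72 above the salt mean, and salt+ABA minus control was -2.45, the lowest value of any member.

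Members of biotic defence included WRKY76, a WRKY transcription factor, NPR3, the chitinase gene Cht6 and the oryzacystatin gene OC-VIII, whose product inhibits cysteine proteases. WRKY76 read 1934, 1893 and 1048 in PL177 and 2902, 2023 and 2053 in IR64 with salt+ABA in shoots. It was at 494, 441 and 341 in PL177 and 367, 151 and 344 in IR64 under salt. It was at 4015, 3875 and 2595 in PL177 and 5056, 2341 and 5283 in IR64 under control. The salt arrays were all below the others, and salt+ABA lay below control within each line except for 1 IR64 control array, which fell between the salt+ABA arrays. The NPR3 probe set of the highest score had a lowest, median and highest intensity of 889.8, 1153 and 1438 with salt+ABA, 102, 107 and 544 under salt and 326, 2576 and 4277 under control. All 4 NPR3 probe sets had every salt+ABA array above every salt array. Cht6 read 1838, 2073 and 2376 with salt+ABA, 166, 299.6 and 735 under salt and 907, 3545 and 5368 under control. OC-VIII, chosen for mention after its values had been seen, read 3261, 3818 and 3968 with salt+ABA, 783, 999 and 2276 under salt and 1301, 5786 and 7878 under control. In Cht6 and OC-VIII the lowest control array lay far under the salt+ABA range, and in OC-VIII it also lay under the highest salt array.

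DXPS, a deoxyxylulose phosphate synthase, stands at the entry of the plastid pathway to isoprenoids, from which carotenoids and ABA itself are made. Its intensity in salt+ABA shoots was 1442, 904 and 1167 in PL177 and 852, 688 and 653 in IR64. Its intensity in salt shoots was 433, 244 and 222 in PL177 and 432, 128.5 and 206 in IR64. Its intensity in control shoots was 3251, 856 and 1994 in PL177 and 3097, 556 and 3224 in IR64. The salt+ABA arrays of PL177 were all above those of IR64, and control array 2 lay below the salt+ABA arrays of its own line. ROMT-17, an O-methyltransferase, read 1103, 1168 and 1464 with salt+ABA, 255, 313 and 508 under salt and 459, 1198 and 1635 under control, so that salt+ABA lay inside the control range. CKX5 codes for a cytokinin oxidase, which breaks down cytokinins, and read 472, 548 and 662 with salt+ABA, 121, 171 and 308 under salt and 204, 1085 and 1653 under control. PIP2-1, a plasma membrane aquaporin, read 671, 805 and 1010.5 with salt+ABA, 169, 235 and 527 under salt and 715, 1250.3 and 2059 under control. For both genes all salt+ABA arrays were above all salt arrays. The SnRK2 kinase gene sapk2, a part of ABA signalling, had one of the smaller shifts, with 1.42 for control minus salt, at 4222, 4356 and 4718 with salt+ABA, 1306, 1705 and 2620.5 under salt and 2061, 6003 and 7278 under control. The COBRA-like gene BC1L9, the heat shock factor gene HSFA9 and the ABC transporter gene ABCG44 had control minus salt of 2.85, 1.61 and 1.80, and salt+ABA minus salt of 1.75, 1.36 and 1.34. CKX5, PIP2-1, sapk2, BC1L9, HSFA9 and ABCG44 were likewise chosen for mention after their values had been seen.

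**Figure D3:**
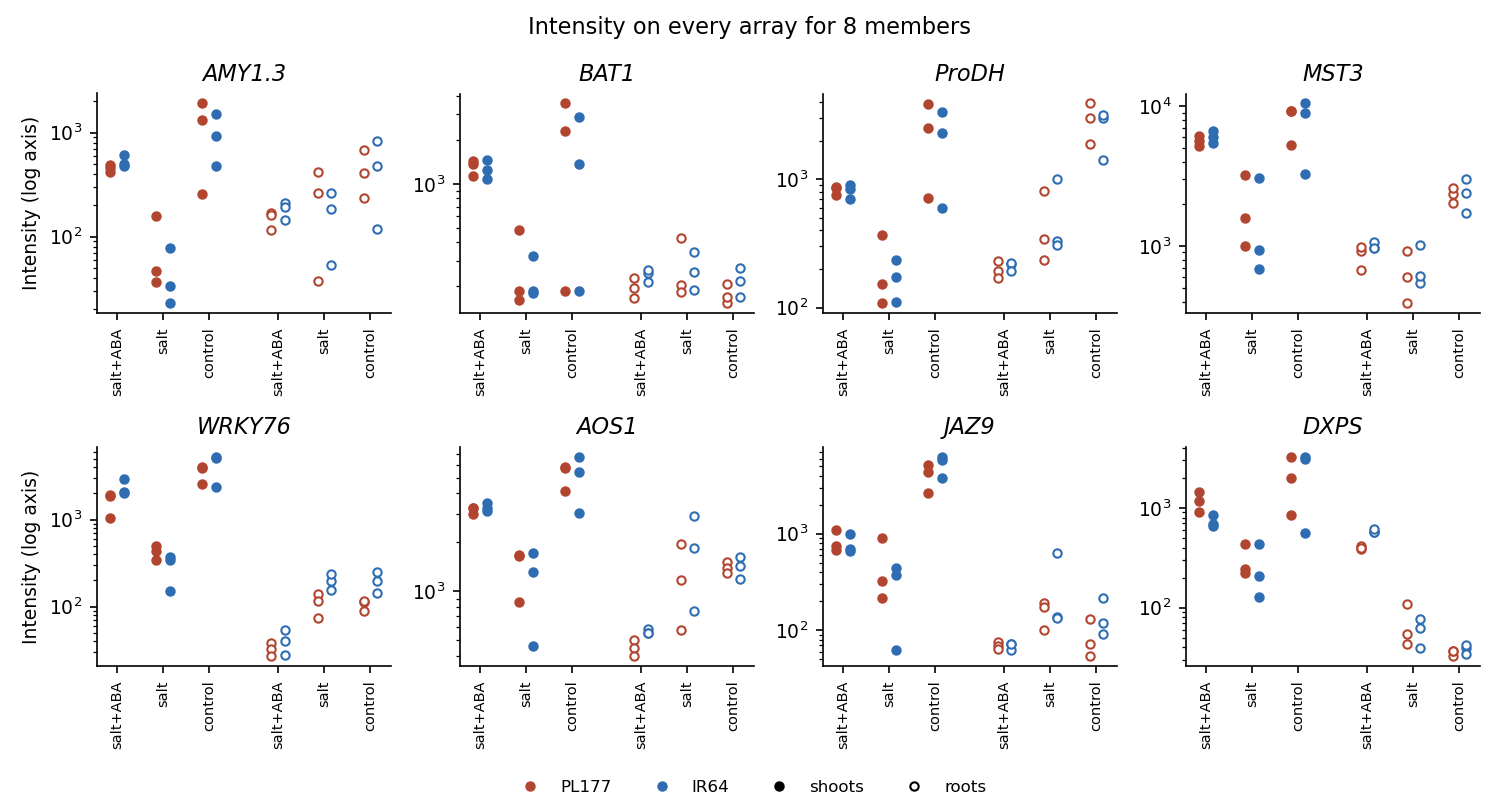
Intensity (log axis) on every array for 8 members, with shoots as filled and roots as open circles, PL177 in red and IR64 in blue, treatments in the order salt+ABA, salt and control. In shoots the salt arrays are the lowest group of each gene, except that 1 salt array of JAZ9 lies among the salt+ABA arrays and control array 2 of BAT1 among the salt arrays, and in roots DXPS is highest with salt+ABA while ProDH and MST3 are highest under control.

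Below control by the most with ABA were, after JAZ9, Os08g0137800, a plastocyanin-like gene, with salt+ABA minus control of -2.13, then 2 probe sets with no gene name at -1.83 each, then Os01g0389700, of the DUF679 family, with -1.58. Both named genes come from the genes that the study had picked. Their control arrays 2 were above every salt+ABA array. At the other end, 6 members were more than 0.5 above control with salt+ABA, namely LOC4350234 (0.85), LOC4325978 (0.80), LOC4351887 (0.65), LOC107278748 (0.60), LOC4334427 (0.54) and 1 probe set with no gene name (0.52). LOC4350234 read 1170.1, 1067 and 1029 in PL177 and 1237, 907 and 1018 in IR64 with salt+ABA. It read 1126, 145 and 1359.6 in PL177 and 756, 141 and 1293 in IR64 under control. Its control array 2 was far below the other control arrays in both lines. Without both control arrays 2, 1 of the 150 members was above control with salt+ABA, against 42 with all arrays.

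Other genes of these pathways were taken from lists of gene symbols, and tested with limma on quantile-normalized arrays. The members, chosen on these same shoot contrasts, had been taken out of the others in this paragraph and the next. A lack of others lower under salt and higher with ABA is thus partly set by that choice. The shares of all probe sets still hold the members. A gene was called at a change of at least 2-fold with a Benjamini-Hochberg adjusted p under 0.05 over the 57258 probe sets. In salt against control shoots 1.27% of all probe sets were called lower and 0.983% higher in PL177, and 1.38% lower and 0.968% higher in IR64. Of the jasmonate list of 39 genes, 3 were members. Of the 36 others, 1 was called higher and 2 lower under salt in PL177, and 1 higher and 4 lower in IR64. AOS2, a further allene oxide synthase, was lower by the largest amount, with log2 differences of -4.00 in PL177 and -4.06 in IR64 (adjusted p = 1.23e-07 and 4.96e-08 from limma), and LOX9 was lower by 2.16 and 1.84 on that scale. AOS3 went the other way, with 1.75 in PL177 and 2.14 in IR64 under salt (adjusted p = 0.00943 and 0.00288), and with salt+ABA against salt it was at -1.92 and -2.05. Without both control arrays 2 the counts of others called lower were 9 in PL177 and 10 in IR64, where 2.3% and 2.5% of all probe sets were called lower. With salt+ABA against salt, 0.197% of all probe sets were called higher and 0.513% lower in PL177, and 0.272% higher and 0.475% lower in IR64. Of the 36 others, AOS3 alone was called there, lower in each line. Without both control arrays 2, 2 others in each line were called higher, where 0.52% and 0.681% of all probe sets were.

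Among 5 further WRKY genes, WRKY62 was lower under salt in both lines, with log2 differences of -2.04 in PL177 and -2.34 in IR64 (adjusted p = 0.0109 and 0.00513 from limma), and WRKY71 in IR64 alone, at -1.29 (adjusted p = 0.0217). The difference between the lines in the salt response of WRKY71, 0.30 ± 0.46 (log2, SE), did not pass limma's test (adjusted p = 1). Most other chitinase genes were not called. Of 15 others in the list of chitinases and glucanases, 4 were called higher under salt in PL177 and 3 in IR64, and none lower. Without both control arrays 2 those counts were 5 and 3 higher and 1 lower in each line, and 2 of the WRKY genes were called lower in each line. In that fit 1 of the 5 WRKY genes was called higher with salt+ABA than under salt in IR64, where 0.681% of all probe sets were. Cht1 was at 3.02 in PL177 and 2.54 in IR64 under salt, and at -1.77 and -1.69 with salt+ABA against salt (adjusted p = 0.00477 and 0.00803). The proline genes other than ProDH included P5CS2, which makes proline, called higher under salt at 1.63 in each line (limma adjusted p of 0.00117 and 0.00115), and OAT, an ornithine aminotransferase, at 1.10 and 1.48. Of 18 other sugar transporter genes, SWEET15 was called higher under salt, at 3.56 in PL177 and 3.92 in IR64, the opposite of MST3. SUT4 was called lower, at -1.10 and -1.14, and SWEET14 in PL177 at -1.12. With salt+ABA against salt, SUT4 and SWEET2A were called higher in IR64, at 1.04 and 1.05. Among the 9 other SAPK genes, SAPK1 was called higher under salt, at 1.45 in PL177 and 1.50 in IR64. With salt+ABA it was lower than under salt by 1.16 and 1.09 in PL177 and IR64, the opposite of sapk2. Of 18 other aquaporin genes TIP3-1 alone was called, higher under salt at 2.24 and 1.89 in PL177 and IR64. It was lower with salt+ABA than under salt, at -1.9 and -1.6, the opposite of PIP2-1. Of 19 other heat shock factor genes, 3 were called higher and 2 lower under salt in each line. With salt+ABA against salt 3 of these were called lower in PL177 and 2 in IR64, and 0 higher. None of the 4 other alpha-amylase genes, 5 other NPR genes, 8 other trehalose-phosphate genes, 4 other cytokinin oxidase genes or 7 other cystatin genes was called in salt against control or salt+ABA against salt shoots with all arrays. Without both control arrays 2, 1 NPR gene in each line was called lower under salt and 1 cytokinin oxidase gene in IR64 was called higher, where 1.35% of all probe sets were called higher in IR64 and 1.34% in PL177.

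In shoots no member was called different between PL177 and IR64. In the direct comparisons of PL177 with IR64, 0 of the 150 members were called under salt+ABA, under salt or under control, where 0.114%, 0.119% and 0.112% of all probe sets were called. The same held for the difference of the lines in the response to ABA and in the response to salt, for which 0% of all probe sets were called. At an unadjusted p under 0.05 there was 1 member in 1 of these 5 comparisons, WRKY76 in the ABA response, lower in PL177 by 1.09. These zeros do not show that the lines were alike, because the 95% confidence interval of a difference between the lines reached a median of 1.23 to either side for a level and 1.74 for a response on the log2 scale. That fit left out that same-numbered control arrays of the 2 lines deviated together. When arrays of one treatment and number were blocked together across the lines, an alternative chosen after seeing the data, the interval reached 0.39 for a level and 0.54 for a response. Then again 0 members were called in each of the 5 comparisons, where 0.126%, 0.127% and 0.119% of all probe sets were called under salt+ABA, salt and control, 0.00175% in the ABA response and 0% in the salt response. By adjusted p alone LOC4336629 passed in that fit, higher in PL177 than in IR64 under control by 0.88 ± 0.12 (log2, SE, limma adjusted p = 0.023). At an unadjusted p under 0.05 the members numbered 10 with salt+ABA, 20 under salt, 30 under control, 19 in the ABA response and 4 in the salt response, where the shares of all probe sets were 4.64%, 4.51%, 9.83%, 2.3% and 5.54%. PL177 was above IR64 for 56 members with salt+ABA, for 136 under salt and for 123 under control, with median differences of -0.05, 0.19 and 0.17. Of all probe sets, 48.7%, 51.6% and 51.3% were lower in PL177 than in IR64 under these treatments. The rise with ABA was the smaller in PL177 for 123 members, with a median difference of -0.25, against 47.1% of all probe sets below 0. Members share arrays, so that 1 array shifts many of them together, and these counts carry no test.

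Members chosen in 1 line were then read in the other, whose arrays had no part in that choice. The calls were not fully separate from it, because 1 fit over all 18 shoot arrays shared its estimate of the spread. The 150 probe sets that the rule gave on PL177 shoots alone had 114 in common with those that it gave on IR64 shoots alone. Of the PL177 set, 51 (34%) were called both lower under salt and higher with salt+ABA in IR64, where 0.201% of all probe sets were, and 150 of 150 had that direction under each contrast. Of the IR64 set, 46 (30.7%) were called both ways in PL177, against 0.114% of all, with the direction of the salt contrast in 150 and that of the ABA contrast in 147. The median response to ABA was 1.73 for the PL177 set in IR64 and 1.46 for the IR64 set in PL177. Both counts hung on the fit and on single arrays. With only the arrays compared in the fit, the count of the PL177 set in IR64 was far lower. The methods' t-test after adjustment lost both counts, as the last section gives. Without IR64 shoot salt array 2 the count in IR64 was 18, and without IR64 shoot control array 2 it was 95. In PL177 it was 15 without PL177 shoot salt array 2 and 81 without IR64 shoot control array 2. Without both control arrays 2 the counts were 133 in IR64 and 119 in PL177, where 0.599% and 0.447% of all probe sets were called. Arrays of the same number stood apart in the same way in both lines, so that the lines are not fully separate samples of a shared condition.

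Shoot levels of the members under each treatment were used to choose them, so that their levels in shoots against roots are a description that partly restates the choice. Shoots minus roots had a median of 2.23 with salt+ABA, 0.16 under salt and 2.01 under control on the log2 scale, where the median of all probe sets was 0.01 under control. Roots were above shoots for 9 members with salt+ABA, 69 under salt and 11 under control. The median over members of the mean intensity was 1067 in salt+ABA shoots, 326 in salt shoots and 1823 in control shoots, and 211, 304 and 280 in roots under the same treatments. In roots, 26 members had a mean below 64, among them LOX8 with intensities between 4.2 and 30.6. In whole organs, fewer cells of a type and less RNA per cell cannot be told apart. Root markers were low in shoots but moved with treatment, since the summed intensity of 9 root genes was 2050 to 2592 with salt+ABA, 1486 to 2442 under salt and 3966 to 5383 under control. Most of that shift was NAAT1, with means of 1154, 1237 and 3505. The silicon channel gene Lsi1 averaged 826 with salt+ABA, 445 under salt and 895 under control, the same order as the members, and each of the other 7 root genes averaged at most 118 in shoots, with the silicon transporter gene Lsi2 between 16.5 and 25.9. The summed intensity of 5 leaf genes was 53038 to 58266 over all shoot arrays. Of these, RBCS1 averaged at most 7.0 there. Most of the sum was a further Rubisco small subunit gene, with means of 22302 to 22581, and the antenna gene CAB2R, with 16300 to 17275. The highest intensity deposited was 25332, so that the sum may miss a change. The part of root and leaf genes in the results on members was not tested.

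**Figure D4:**
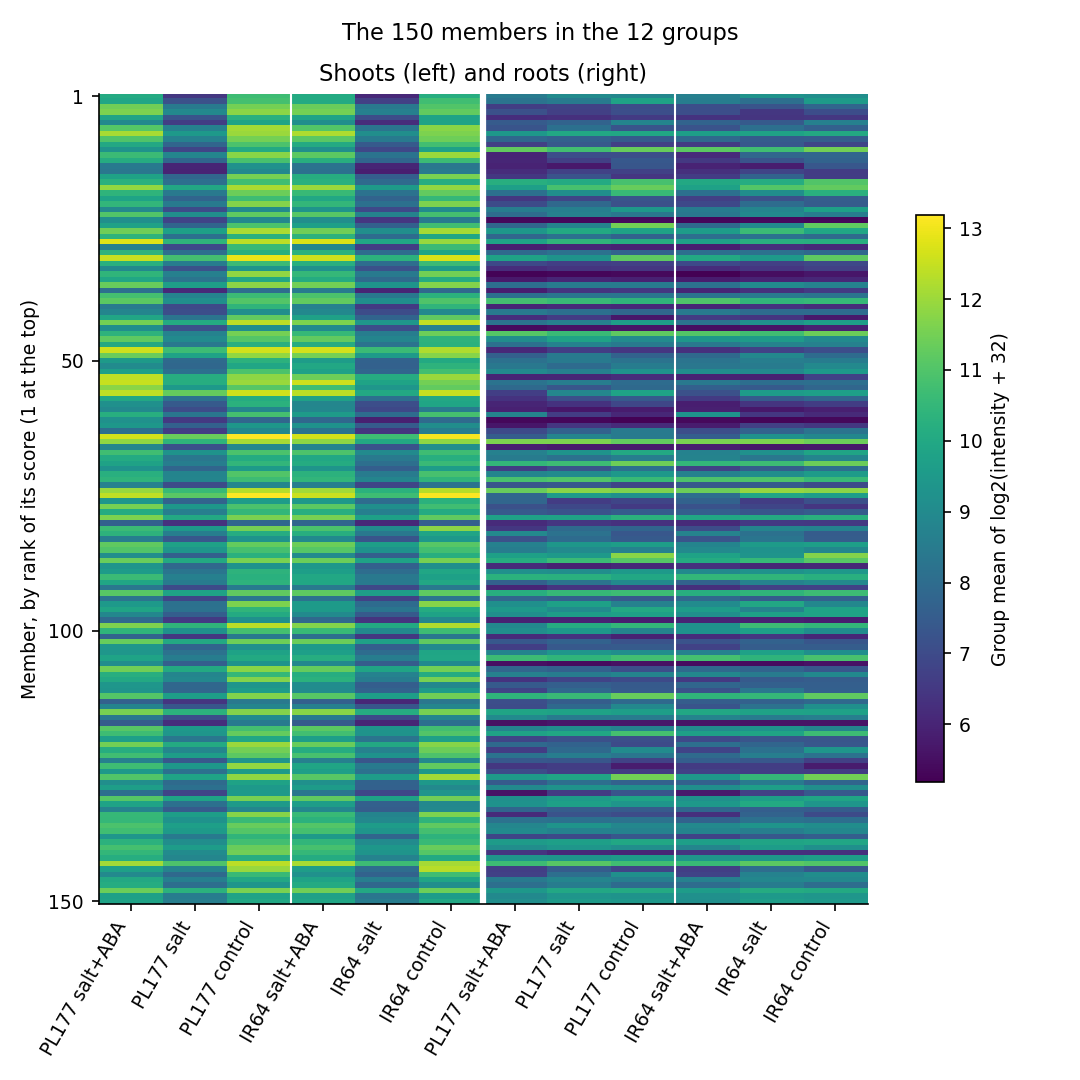
Group means of log2(intensity + 32) for the 150 members, one line for each member in order of score with the highest at the top. In shoots (left 6 columns) both salt columns are darker than the salt+ABA and control columns of the same line, while roots (right 6 columns) show no such band over most members.

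Most members were not called in roots. For salt+ABA against salt in roots, 2 members were called higher and 2 lower in PL177 (1.33% each), and 2 higher and 6 lower in IR64 (1.33% and 4%). Of all probe sets, 0.327% were called higher and 1.05% lower in PL177, and 0.33% and 0.975% in IR64. For salt against control, 0 were higher and 8 lower (5.33%) in PL177, and 2 higher (1.33%) and 8 lower (5.33%) in IR64. Of all probe sets, 0.73% were higher and 0.606% lower in PL177, and 0.608% and 0.592% in IR64. The largest counts came from salt+ABA against control, with 2 higher and 22 lower (14.7%) in PL177 and 2 higher and 23 lower (15.3%) in IR64, where 1.1% and 0.875% of all probe sets were higher and 0.906% and 0.798% lower. Over the 124 members with a root mean of at least 64 the shares called lower were 16.9% and 17.7%, against 1.81% and 1.58% of probe sets of that brightness. The median differences in roots were -0.27 and -0.25 for salt+ABA against salt, -0.02 and -0.08 for salt against control, and -0.23 and -0.32 for salt+ABA against control in PL177 and IR64. Called in both lines were 2 higher and 2 lower for salt+ABA against salt, 8 lower for salt against control, and 2 higher and 21 lower for salt+ABA against control, and no member was called in opposite directions. No share of all probe sets called in both lines was computed, so that nothing is read from these counts. Same-numbered root control arrays of the 2 lines deviated together, so that a call in both lines is not 2 separate results. All 6 root salt+ABA arrays lay below all 6 root salt arrays for 25 members (16.7%), a separation shown by 5.3% of all probe sets, and all 6 root control arrays lay below all 6 root salt arrays for 5 members (3.33%), against 6.28% of all. Leaf genes moved in the same roots. The summed intensity of the 5 leaf genes was 5627 to 8630 with salt+ABA, 15966 to 23360 under salt and 7373 to 14486 under control, and its part in the root results was not tested.

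**Figure D5:**
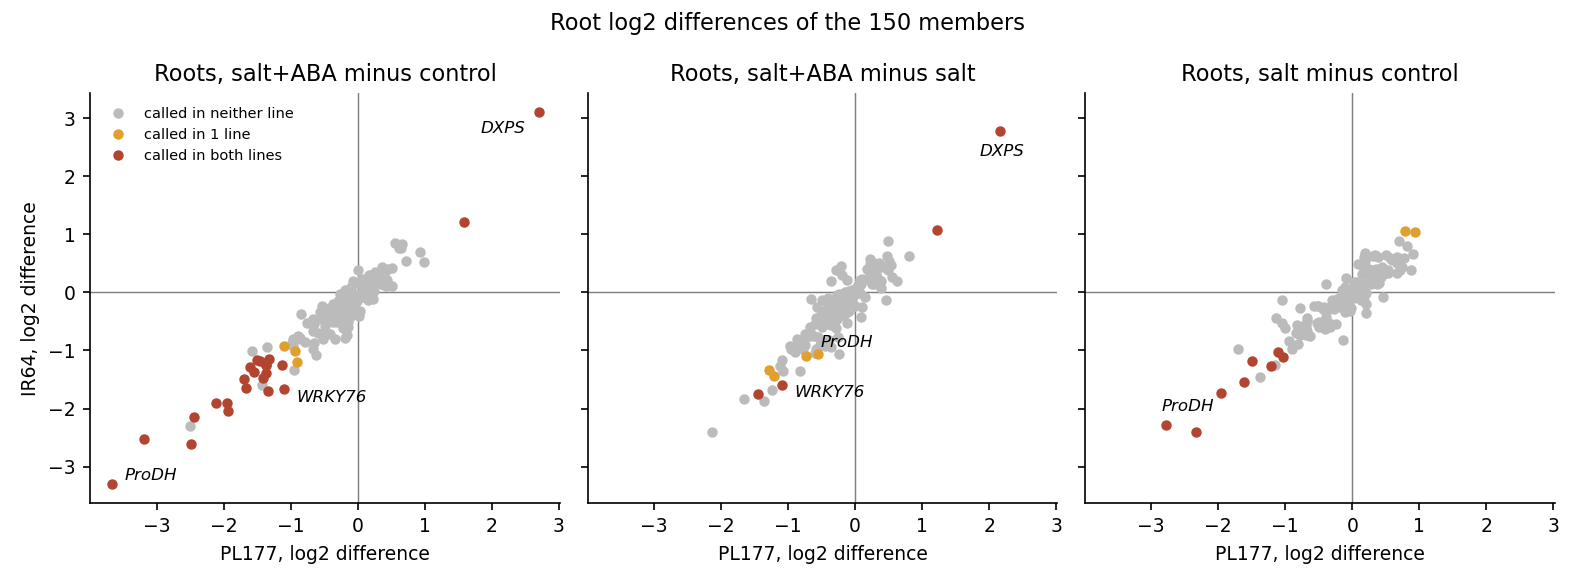
Log2 differences of the 150 members in roots, PL177 on the x axis and IR64 on the y axis, for salt+ABA minus control, salt+ABA minus salt and salt minus control. Grey points were called in neither line, orange in 1 line and red in both; most called points lie at the lower left of the first panel, with ProDH lowest, and DXPS lies at the upper right of the first and second panels.

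ProDH was lower in roots under salt than under control and with salt+ABA than under control, whereas in shoots all salt+ABA arrays were above all salt arrays. In salt+ABA roots ProDH read 231, 192 and 169 in PL177 and 219, 220.3 and 194 in IR64. In salt roots ProDH read 340.1, 234 and 808 in PL177 and 328, 306 and 1008 in IR64. In control roots ProDH read 3886, 1877 and 3009.7 in PL177 and 3009.9, 1419 and 3150.0 in IR64. The control arrays were above all others, and the salt+ABA arrays were below all salt arrays. Salt+ABA against control gave -3.67 ± 0.45 in PL177 and -3.30 ± 0.45 in IR64 (log2, SE, n = 3 per group, limma adjusted p = 5.98e-05 and 0.000187). Salt against control gave -2.78 ± 0.45 and -2.29 ± 0.45 (limma adjusted p = 0.000983 and 0.00391). In MST3, the sugar transporter gene, salt+ABA roots read 923, 989 and 672 in PL177 and 969, 1063 and 961 in IR64. Salt roots of MST3 read 916, 392 and 601 in PL177 and 1011, 546 and 611 in IR64. Control roots of MST3 read 2340.3, 2042 and 2616 in PL177 and 2407, 1729 and 3017 in IR64. Control was above both treatments without overlap, and the salt and salt+ABA arrays overlapped. Salt against control was at -1.96 ± 0.27 in PL177 and -1.73 ± 0.27 in IR64 (limma adjusted p = 0.000313 and 0.000881). Salt+ABA against control was at -1.46 and -1.18, and in IR64 that call was lost without root control array 3 (limma adjusted p = 0.0586). For both genes the study had chosen them on these samples, so that their root direction is not independent evidence.

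DXPS and ROMT-17 were the 2 members called higher in roots with salt+ABA than under control. In salt+ABA roots DXPS read 384, 410.3 and 400.4 in PL177 and 567, 571 and 614 in IR64. In salt roots DXPS read 108, 54.4 and 43.6 in PL177 and 62.2, 76.7 and 39.1 in IR64. In control roots DXPS read 32.8, 37.2 and 36.7 in PL177 and 39.8, 41.9 and 34.1 in IR64. All salt+ABA arrays were above all other root arrays, salt was above control in PL177, and salt and control overlapped in IR64. Salt+ABA against control was at 2.70 ± 0.17 in PL177 and 3.11 ± 0.17 in IR64 (limma adjusted p = 1.23e-07 and 2.16e-08), and salt+ABA against salt at 2.17 ± 0.17 and 2.78 ± 0.17 (limma adjusted p = 2.75e-06 and 2.24e-07). ROMT-17 read 495, 459 and 443 in PL177 and 489, 420.3 and 311 in IR64 in salt+ABA roots. In salt roots ROMT-17 read 385, 172 and 266 in PL177 and 190.1, 271 and 328 in IR64. In control roots ROMT-17 read 158, 117 and 126 in PL177 and 195, 122 and 139.8 in IR64. All salt+ABA arrays were above all control arrays, and 1 salt array of IR64 was above 1 of its salt+ABA arrays. Salt+ABA against control gave 1.58 ± 0.22 and 1.22 ± 0.22 (limma adjusted p = 0.000209 and 0.00213). The other member called higher with salt+ABA than under salt in both lines was a probe set with no gene in the annotation, at 1.22 in PL177 and 1.08 in IR64 (limma adjusted p = 0.00424 and 0.0105), and at 0.99 without root salt array 2 of IR64.

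WRKY76 went down in roots with salt+ABA, where it was dim. Its root intensities were 38.2, 32.4 and 27.1 in PL177 and 40.7, 54.5 and 27.6 in IR64 with salt+ABA. They were 139, 115 and 73.3 in PL177 and 155, 196 and 238 in IR64 under salt. They were 89.9, 112 and 116 in PL177 and 145, 249 and 197 in IR64 under control. All salt+ABA arrays were below all other root arrays, and salt and control overlapped. Salt+ABA against salt was at -1.09 ± 0.20 in PL177 and -1.59 ± 0.20 in IR64 (limma adjusted p = 0.0024 and 0.0001), and -0.95 in PL177 without its root salt array 1. Against control it was at -1.11 ± 0.20 and -1.67 ± 0.20 (limma adjusted p = 0.00127 and 4.84e-05). A probe set with no gene in the annotation was the other member lower than under salt in both lines, at -1.44 and -1.75 (limma adjusted p = 0.00192 and 0.000406). NPR3 was at -1.37 and -1.25 against control by its probe set of the highest score (limma adjusted p = 0.000662 and 0.00173), and its root intensities had a lowest, median and highest of 23.2, 47.1 and 69.4 with salt+ABA, 49.8, 92.2 and 160.4 under salt and 107, 169 and 211 under control.

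Of the genes with no role annotated, LOC4324627 was lower in roots under salt than under control by 2.33 and 2.40, and LOC4336629 by 1.61 and 1.54, in PL177 and IR64 (limma adjusted p of at most 7e-05 for each). LOC4324627 read 730.1, 836 and 906 with salt+ABA, 482, 605 and 934 under salt and 2335, 3578 and 4118 under control. LOC4349519 and LOC4336059 had salt+ABA against control of -2.45 and -2.49 in PL177 and -2.14 and -2.61 in IR64. The study had picked the probe set of LOC4349519 on these samples, so that its direction is not independent evidence. The study lists that probe set under another locus than the platform annotation does, so that the gene it measures is unsure. LOC4336059 read 53.6, 73.4 and 89.9 with salt+ABA, 142, 182 and 611 under salt and 383, 569 and 816 under control, 3 ranges of which only salt and control overlapped. Weaker calls were lost when any of several single arrays was left out. AOS1 with salt+ABA against control was at -1.60 in PL177 and -1.29 in IR64 (limma adjusted p = 0.0117 and 0.0457), and the call in IR64 was lost without any 1 of 13 of the 18 root arrays, with an adjusted p of up to 0.121. TPP1 was at -1.93 and -2.04 (limma adjusted p = 0.0436 and 0.04) and lost that call without any 1 of 9 arrays in each line, with adjusted p of up to 0.144 and 0.156. PIP2-1 was called lower under salt at -1.04 and -1.12 although its salt and control arrays overlapped, and lost the call without any 1 of 12 arrays in PL177 and of 10 in IR64. The members called higher under salt in IR64 roots were Os08g0137800 at 1.04, which was at 0.78 (limma adjusted p = 0.0893) without root salt array 3 of IR64, and Os01g0389700 at 1.06, which lost its call without any 1 of 10 arrays.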

How the data were processed

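The deposited values were intensities on a linear scale, 1 per probe set and array, as the authors deposited them for 57381 probe sets. The summary and normalization were not given in the sources used here. Tests had been planned for log2 values, so log2(intensity + 32) was computed from the linear ones. The value 32 understates changes of dim probe sets, and 31.2% of values were below it. Array medians were 56.9 to 64.5. The 123 array controls were left out. Scores used these values as they were. For tests, shoots and roots (18 arrays each) were quantile normalized separately and fitted with limma 3.58.1 (lmFit, eBayes; R 4.3.3) over 6 groups, with Benjamini-Hochberg adjustment over 57258 probe sets. A call needed a change of at least 2-fold and an adjusted p under 0.05. Tables were made with Python 3.11.15 and pandas 2.3.3. The fit was tested on simulated data. Deviations of same-numbered control arrays of the 2 lines from their group means correlated at 0.71 to 0.74 in shoots and 0.58 to 0.69 in roots, a pairing seen in the data and not stated in the labels. Precision is limited by having 3 arrays per group. Genes were named through the platform annotation (22436 probe sets with 1 gene, 95 with several, 34727 with none). The text may name up to 40 members with a gene name by score, up to 4 of each gene list, up to 10 called in each direction of a root comparison with groups that did not overlap, and the 3 probe sets on each side of the limit. Others named were chosen after their values were seen. Members and lists were chosen with earlier results of these data known. Alternatives were other values added, other normalizations, other fits, a t-test, adjusted p alone, the replicate number as a block, and each array left out.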

Additional observations from a re-analysis of the deposited data

Results flagged for a closer look

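In 23 members the addition of ABA to salt went with opposite shifts in the 2 organs. All 6 shoot arrays with salt+ABA were above all 6 with salt, and all 6 root arrays with salt+ABA were below all 6 with salt. They include WRKY76, ProDH, PDRP1, sapk2, Os01g0389700, LOC4349519, LOC4336059 and 2 probe sets of NPR3. The shoot side of this pattern was used to choose the members, so the difference between the organs was not tested. The share of all probe sets that met both sides was not computed, so that nothing is read from the count of 23. In the same roots the summed intensity of the 5 leaf genes was also lower with salt+ABA than under salt, and its part was not tested. The root side alone was met by 25 of the 150 members (16.7%) and by 5.3% of all probe sets. In 1 member, LOC4330542, all 6 shoot salt arrays were below all 6 shoot control arrays and all 6 root salt arrays were above all 6 root control arrays. That difference was not tested either, and the share of all probe sets that met both its sides was not computed. Its root side was met by 5 members (3.33%) and by 6.28% of all probe sets.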

How the results depend on the processing

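Of 55 calls of single members in roots, 35 were kept without each single array, 20 were lost without at least 1, and 0 changed sign in any alternative. The 5 comparisons of the lines in shoots gave 0 called members under each alternative. Counts of members called in roots were, in PL177 and IR64, 8 and 10 for salt against control, 24 and 25 for salt+ABA against control, and 4 and 8 for salt+ABA against salt, and the crossed sets gave 51 in IR64 and 46 in PL177. No share of all probe sets is given here for the alternatives that follow. Their counts show only how far the member counts moved. With a larger value than 32 added before log2, salt against control gave 4 and 4, salt+ABA against control in IR64 gave 10, and salt+ABA against salt gave 1 and 2. With adjusted p alone the 3 pairs were 34 and 26, 46 and 48, and 13 and 21. With only the arrays compared in the fit, salt against control gave 4 and 3, salt+ABA against salt in IR64 gave 4 and the PL177 set in IR64 gave 13. With all 36 arrays in 1 fit the crossed sets gave 99 and 94. Salt+ABA against salt in IR64 gave 5 with arrays centred on their medians and 4 with limma's trend and robust options. The methods' t-test after adjustment gave 0 in both lines for salt against control, 12 for salt+ABA against control in IR64, 0 and 1 for salt+ABA against salt, and 0 and 0 for the crossed sets. Without adjustment it gave 5 for salt+ABA against salt in IR64 and 79 for the IR64 set in PL177. Over all 45 pairs of groups and numbers in each organ, deviations of same-numbered arrays correlated above 0.1 in 12 root pairs and 19 shoot pairs and below -0.1 in 13 and 10, so that the numbers did not pair the treatments. Between the lines under 1 treatment, they paired the control arrays, and 2 of 3 pairs were above 0.1 under salt and with salt+ABA in each organ. With the replicate block the crossed sets gave 83 and 83, and 3 of the 55 root calls were lost. Without both shoot control arrays 2 the crossed sets gave 133 and 119. Without 1 array the ranges were 5 to 11 and 5 to 10 for salt against control, 20 to 26 and 16 to 25 for salt+ABA against control, 4 to 8 and 4 to 13 for salt+ABA against salt, 18 to 95 and 15 to 81 for the crossed sets, and 139 to 148 members were chosen again. The lowest were without PL177 root control 3 (5) and IR64 root control 1 (5) for salt, and without IR64 root salt+ABA 2 (16) for salt+ABA against control in IR64. The highest for salt+ABA against salt were without PL177 root salt 2 (8) and without IR64 root salt 1 or 2 (13). The cause of these shifts was not tested. Brightness limits what roots can show, since 26 members averaged below 64 there.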
